A study of Mus musculus with 9 samples.

Results

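Glutamate receptor subunits and the scaffold proteins that hold them at the postsynaptic membrane were followed across 9 RNA-seq libraries from the paraventricular thalamus (PVT) of wild-type mice. The members were picked with earlier results of these data known, by a rule on gene symbols: every Gria, Grin, Grik, Grid and Grm gene in the table, the scaffold genes Dlg1 to Dlg4, Dlgap1 to Dlgap4 and Shank1 to Shank3, and Homer2 and Homer3. It held 39 of the 21899 genes in the table, of which 18 encode ionotropic receptor subunits, 8 encode metabotropic receptors and 13 encode scaffolds. A low-count filter left 38 of them in the test. The gene left out was Grm6, a metabotropic receptor best known from retinal bipolar cells, with 0 counts in all 3 PBS libraries, with 0, 0 and 4 in the LPS libraries of day 1 and with 1, 0 and 0 in those of day 7.

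The mice were wild type in all groups and had received PBS, with tissue taken on day 1, or lipopolysaccharide (LPS), an endotoxin of Gram-negative bacteria that sets off inflammation, with tissue taken on day 1 or on day 7. Each group had 3 libraries, called here PBS 1d, LPS 1d and LPS 7d. No age or sex is given for the animals in the sources used here, nor whether the 3 libraries of a group came from separate animals, so the p-values reflect the scatter of these libraries alone, and that scatter may be technical. A PBS group at 7 days was not analysed here, so in LPS 7d against PBS 1d the treatment and the day of collection cannot be told apart. The 3 comparisons share their groups and are therefore not independent of one another.

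Fast excitatory transmission runs through ionotropic glutamate receptors, which are channels built from AMPA, NMDA or kainate receptor subunits. The delta receptors belong to the same gene family but bind cerebellins and organise synapses. Metabotropic (mGlu) receptors act through G proteins and fall into group I, which couples to phospholipase C and is largely postsynaptic, and groups II and III, which lower cyclic AMP and often sit on presynaptic terminals. Beneath the membrane, DLG proteins (PSD-95 and its relatives) bind receptor tails, DLGAP proteins link DLG to SHANK, and HOMER proteins tie SHANK to group I mGlu receptors. The PVT is a midline thalamic nucleus of mainly glutamatergic neurons with a known part in arousal.

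Library totals ranged from 13211422 to 17210526 counts. Values below are CPM, that is, counts scaled to the TMM-adjusted library total, unless named otherwise, ± SD over n = 3 libraries, and differences are log2 fold changes ± SE from edgeR's quasi-likelihood test over 14837 genes, called at a Benjamini-Hochberg adjusted p under 0.05. The groups differed in more than treatment. Summed Y-linked transcripts were 0 to 0.0588 CPM in PBS 1d but 81.5 to 85.2 CPM in LPS 1d and 90.5 to 102 CPM in LPS 7d, so treatment and the sex marked by Y-linked transcripts cannot be told apart. General neuronal markers summed to 11799 to 12121, 11949 to 12129 and 11182 to 11498 CPM in the same order. Of these 18 markers, 4 were higher and 10 lower in LPS 1d than in PBS 1d (median -0.14). The shares of all genes were 24.9% and 24.2%. In LPS 7d 8 were higher and 7 lower than in PBS 1d (median -0.01), beside 16.8% and 18.9% of all genes. The scaling to these markers used below averages their logs, so that each counts alike. The 10 thalamic and PVT markers were present at 1039 to 1046, 949 to 964 and 883 to 909 CPM, with Tcf7l2, a thalamic transcription factor, at 67.0 ± 1.92, 49.7 ± 7.14 and 40.6 ± 4.91 CPM and Calb2 (calretinin, a PVT marker) at 97.1 ± 4.44, 73.8 ± 2.16 and 159.8 ± 4.99 CPM. Calb2 was the only 1 of the 10 called higher in LPS 7d than in PBS 1d, while 7 were lower. In LPS 1d, 2 of the 10 were higher and 6 lower than in PBS 1d (median -0.32). Striatal neuron markers were also present, at 2634 to 2716 CPM in PBS 1d, 1626 to 1631 CPM in LPS 1d and 1214 to 1236 CPM in LPS 7d. Of these 12, 11 were lower in LPS 1d and 12 in LPS 7d than in PBS 1d (medians -0.79 and -1.18). Cortical and hippocampal markers summed to 1176 to 1223, 1386 to 1417 and 1073 to 1103 CPM in the same order. Of these 10, 5 were higher and 1 lower in LPS 1d than in PBS 1d (median 0.15). In LPS 7d 2 were higher and 5 lower than in PBS 1d (median -0.06). Cerebellar granule cell markers summed to 184 to 192, 153 to 160.4 and 1178 to 1205 CPM, Purkinje cell markers to 887 to 928, 773 to 791 and 1665 to 1689.5 CPM, and hindbrain markers to 6.45 to 8.75, 4.17 to 6.15 and 72.8 to 84.2 CPM. Gabra6, the GABA-A receptor subunit that defines cerebellar granule cells, stood at 0.0861 ± 0.0435 CPM in PBS 1d, 0.0203 ± 0.0351 CPM in LPS 1d and 164 ± 3.82 CPM in LPS 7d, and Pcp2, which defines Purkinje cells, at 0.263 ± 0.244, 0.262 ± 0.24 and 13.8 ± 2.52 CPM. In bulk tissue, fewer cells of a type and less RNA per cell cannot be told apart.

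**Figure D1:**
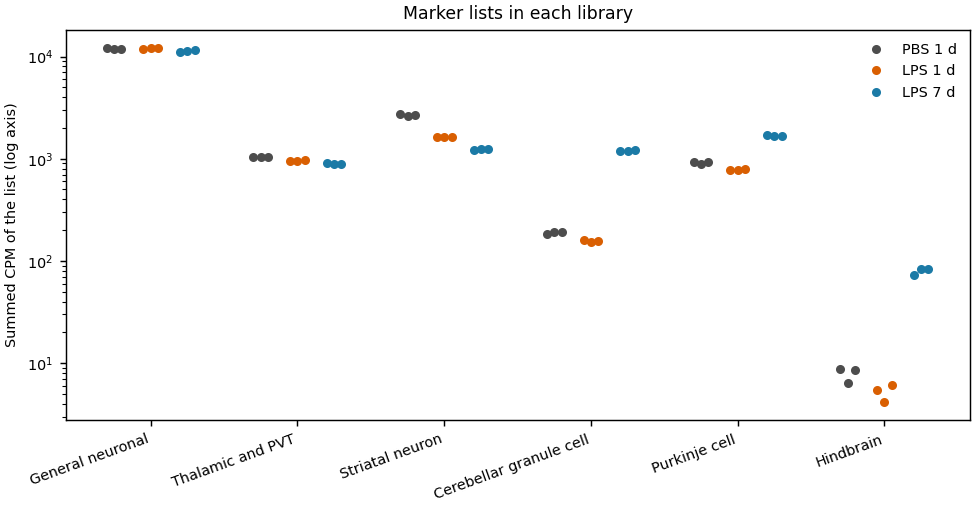
Summed level (CPM, log axis) of the general neuronal, thalamic and PVT, striatal, granule cell, Purkinje cell and hindbrain marker lists. Each point is 1 library of PBS 1d, LPS 1d or LPS 7d. Granule cell, Purkinje cell and hindbrain markers are highest in the 3 LPS 7d libraries, and striatal markers are highest in the 3 PBS 1d libraries.

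The 5 members that were higher at 7 days than in PBS include Gria4, Grin2c and Homer3, whose promoter windows are printed because these members moved together at 7 days and have an entry in the RefSeq promoter table (25 of the 39 members do). Each is the 250 bases before the annotated start, read 5′ to 3′ on the gene's strand in GRCm38.p6, an older build than the GRCm39 named in the submitters' processing notes. Gria4 is at chr9:4796235-4796484 on the minus strand, Grin2c at chr11:115267244-115267493 on the minus strand and Homer3 at chr8:70282749-70282998 on the plus strand. Capitals mark the E-box CANNTG, which reads the same on both strands.
Gria4: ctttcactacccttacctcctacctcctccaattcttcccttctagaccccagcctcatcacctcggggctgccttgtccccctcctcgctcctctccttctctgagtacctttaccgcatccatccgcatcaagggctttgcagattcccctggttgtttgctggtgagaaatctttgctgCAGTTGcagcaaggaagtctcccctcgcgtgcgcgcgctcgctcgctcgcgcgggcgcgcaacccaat
Grin2c: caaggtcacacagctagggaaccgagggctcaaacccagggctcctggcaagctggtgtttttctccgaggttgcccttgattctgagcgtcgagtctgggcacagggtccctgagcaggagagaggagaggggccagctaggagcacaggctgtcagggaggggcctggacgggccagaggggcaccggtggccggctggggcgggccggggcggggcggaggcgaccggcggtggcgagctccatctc
Homer3: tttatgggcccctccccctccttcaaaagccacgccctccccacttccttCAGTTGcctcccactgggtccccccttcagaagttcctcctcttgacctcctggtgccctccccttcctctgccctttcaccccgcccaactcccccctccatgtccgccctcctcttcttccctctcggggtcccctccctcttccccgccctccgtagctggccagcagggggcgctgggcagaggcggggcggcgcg
The Gria4 and Homer3 windows each held 1 E-box, with the same 6 letters, and the Grin2c window held 0. Among all 32851 windows of that length, 66.2% held at least 1. The G and C content of the 3 windows was 58.8%, 68.8% and 68.0% in the order printed.

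One day after LPS, metabotropic receptor transcripts were lower as a group, while ionotropic subunits went both ways. Of the 4 AMPA subunits 2 were higher (Gria1 and Gria2) and 1 lower, and of the 7 NMDA subunits 2 were higher (Grin2a and Grin2b) and 3 lower. Of the 10 cortical and hippocampal markers, 5 were higher and 1 lower (median 0.15), and their part in these calls was not tested. Of the 38 members tested in LPS 1d against PBS 1d, 9 were higher and 22 lower, against 24.9% higher and 24.2% lower among all genes tested. Their median difference was -0.17 on the log2 scale, with a range of -0.79 to 0.38, against a median of -0.01 for all genes. All 7 metabotropic receptors tested were lower (median -0.42). The 10 thalamic and PVT markers were 2 higher and 6 lower (median -0.32), and their part in the metabotropic fall was not tested. Among ionotropic subunits 6 were higher and 8 lower (median -0.06), and among scaffolds 3 were higher and 7 lower (median -0.15). Changes were small: 2 of the 38 members, Grm4 and Grm8, passed a fold of 1.5 in size. Among all 14837 genes tested, 2214 did. Tested against a fold of 1.5 rather than against no change, 1 member, Grm4, was called. That test called 511 of all 14837 genes higher and 136 lower.

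The split between higher and lower at 1 day depended on the scaling. Scaling the libraries to the general neuronal markers moved the median of all genes by 0.11 and gave 14 members higher and 13 lower. All genes then split into 5373 higher and 2154 lower, against 3699 and 3590 under TMM. Gria4, Grik2, Grik3, Grid1, Dlg1, Dlg2, Dlg3, Dlgap3 and Shank1 were no longer called lower, and Gria3, Grin1, Dlg4 and Dlgap4 were among those then called higher. The 7 metabotropic receptors were lower under every scaling tried. Without PBS 1d replicate 2, the number of higher members was 5, with Gria2, Grin2b, Shank2 and Homer3 no longer called.

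By 7 days after LPS 5 members were higher than in PBS 1d, Gria4 by the least (0.56) and Homer3 by the most (2.42), and 24 were lower, Dlgap2 by the most (-0.82). The background was 16.8% higher and 18.9% lower among all genes tested. The median over members was -0.27, against 0.00 for all genes, and the range was -0.82 to 2.42. Among the 5 higher members were Homer3, Grm4, Grin2c and Gria4, genes known for cerebellar expression, and their levels rose beside the granule cell, Purkinje cell and hindbrain markers given above, whose part in the result was not tested. Scaffolds accounted for 11 of the 24 lower members. Against a fold of 1.5, the test called 4 members higher, among them Homer3, Grm4 and Grin2c, and Dlgap2 lower. Of all 14837 genes it called 342 higher and 197 lower.

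From day 1 to day 7 after LPS, 13 members were higher and 20 lower, with 27.5% and 29.1% of all genes as background. The members' median was -0.12 and their range -0.74 to 2.28. Metabotropic receptors were 5 higher and 1 lower (median 0.40), ionotropic subunits 6 higher and 10 lower (median -0.19), and scaffolds 2 higher and 9 lower (median -0.22). Scaled to the general neuronal markers, the split became 9 higher and 22 lower, with Grm3, Grik1, Grik2 and Shank3 no longer called higher and Grm7 and Shank1 called lower. Of all 14837 genes, 2817 were then higher and 5666 lower. Some of these calls rested on single libraries. Dlg2 was not called without LPS 1d replicate 3 or LPS 7d replicate 1, Grik3 without LPS 1d replicate 1 or 3 or LPS 7d replicate 1, Grm3 without LPS 1d replicate 3 or LPS 7d replicate 2, and Shank3 without LPS 7d replicate 3. Grik1 was not called without replicate 2 or 3 of either LPS group, nor Grin3b without LPS 1d replicate 1 or 3 or LPS 7d replicate 1 or 2, while Grin2d was called higher without LPS 1d replicate 2 or LPS 7d replicate 1. Against a fold of 1.5, 5 members were called higher (Homer3, Grm4, Grin2c and Gria4 among them) and 1 lower (Grin2b). Of all 14837 genes, 550 were called higher and 706 lower.

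**Figure D2:**
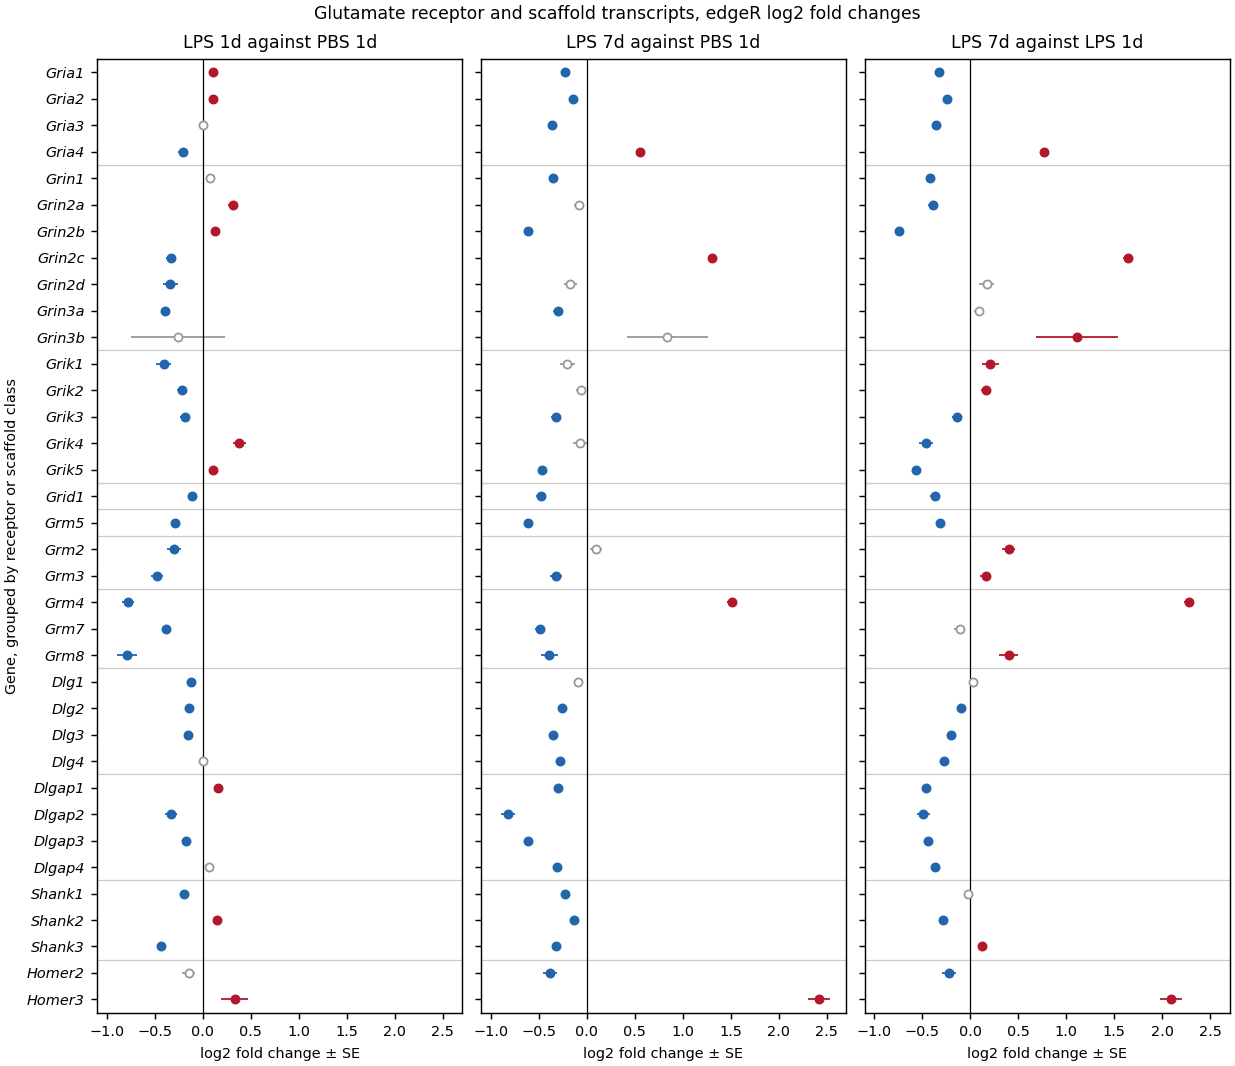
Log2 fold change (± SE) of tested members by receptor or scaffold class in the 3 comparisons, with red filled points for higher, blue filled points for lower and open grey points for members that did not pass the test. The metabotropic receptors shown are blue throughout in LPS 1d against PBS 1d, and Homer3, Grm4 and Grin2c stand far to the right in the comparisons that include LPS 7d.

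AMPA receptor channels are tetramers of Gria1 to Gria4 products. Gria4, on chromosome 9 (4417896 to 4796234 in the deposited coordinates), encodes a fast-gating subunit of thalamic and cerebellar circuits. It measured 157, 150.3 and 141 CPM in PBS 1d, 122, 130.4 and 134 CPM in LPS 1d and 217, 219 and 225 CPM in LPS 7d. The groups did not overlap, with LPS 1d lowest and LPS 7d highest. The difference was -0.21 ± 0.05 at 1 day (adjusted p = 0.0001), 0.56 ± 0.04 at 7 days against PBS (adjusted p = 1.34e-15) and 0.77 ± 0.04 between the LPS groups (adjusted p = 7.55e-21). Scaled to the neuronal markers, Gria4 at 1 day was not called.

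Gria1, a subunit whose trafficking underlies much activity-dependent plasticity, went the other way. Its level was 545, 517 and 512 CPM in PBS 1d, 565, 559 and 567 CPM in LPS 1d and 444, 453 and 451 CPM in LPS 7d. The 3 groups were separate, with LPS 1d slightly above PBS and LPS 7d below both. The 1-day difference was 0.10 ± 0.03 (adjusted p = 0.0118), and at 7 days Gria1 was lower by -0.22 ± 0.04 against PBS (adjusted p = 5.87e-07) and by -0.33 ± 0.04 against LPS 1d (adjusted p = 1.95e-11). Gria2, whose edited product keeps the channel impermeable to calcium, read 564, 534 and 579 CPM in PBS 1d, 593, 612 and 593 CPM in LPS 1d and 522, 502 and 500.2 CPM in LPS 7d. Its order was the same as that of Gria1, with a gap between groups smaller than the range within PBS. The fit gave 0.10 ± 0.04 at 1 day (adjusted p = 0.0164) and -0.14 ± 0.04 at 7 days against PBS (adjusted p = 0.00161). Under upper-quartile scaling, or without PBS 1d replicate 2 or LPS 1d replicate 2, the 1-day call for Gria2 was lost. Gria3, which is X-linked, averaged 223 ± 7.54, 223 ± 1.46 and 173 ± 5.15 CPM in the 3 groups and passed the test at 7 days only, at -0.36 ± 0.04 against PBS (adjusted p = 1.5e-10).

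NMDA receptors pair the obligatory GluN1 subunit, encoded by Grin1, with GluN2 or GluN3 subunits that set gating and calcium entry. Grin1 measured 357, 349 and 344 CPM in PBS 1d, 368, 378 and 356 CPM in LPS 1d and 242, 287 and 295 CPM in LPS 7d. PBS 1d and LPS 1d overlapped, and every LPS 7d library was lower, the first of them most. The 1-day difference of 0.07 ± 0.04 did not pass the test (adjusted p = 0.205), and the 7-day difference against PBS was -0.35 ± 0.04 (adjusted p = 4.66e-09). Grin2c, on chromosome 11 (115139995 to 115158069), encodes a GluN2 subunit known from cerebellar granule cells, thalamus and astrocytes. It stood at 89.8, 84.0 and 88.9 CPM in PBS 1d, 71.2, 70.1 and 68.1 CPM in LPS 1d and 206, 228 and 219.6 CPM in LPS 7d. No library of 1 group reached another group, and LPS 7d was far above the rest. Grin2c fell at 1 day (-0.33 ± 0.05, adjusted p = 4.44e-07) and was 2.48-fold higher at 7 days than in PBS (1.31 ± 0.05, adjusted p = 2.18e-29). Between the LPS groups the fold was 3.12 (adjusted p = 3.9e-33).

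Grin2b, on chromosome 6 (135690231 to 136150509), encodes the GluN2 subunit with slow decay that is abundant in forebrain. Its libraries read 356, 321 and 353 CPM in PBS 1d, 386, 370.2 and 374 CPM in LPS 1d and 216, 238 and 221 CPM in LPS 7d. LPS 7d was lowest by a wide margin, and LPS 1d lay just above PBS. Grin2b was 0.13 ± 0.04 higher at 1 day (adjusted p = 0.00518), a call lost without PBS 1d replicate 2, and fell by 34.4% at 7 days against PBS (-0.61 ± 0.04, adjusted p = 6.92e-18). Against LPS 1d it fell by 40.2% (-0.74 ± 0.04, adjusted p = 2.1e-21). Grin2a, the GluN2 subunit that dominates in mature forebrain, moved from 117 ± 8.25 to 146 ± 4.57 CPM at 1 day (0.31 ± 0.05, adjusted p = 3.98e-07) and stood at 111 ± 3.06 CPM at 7 days, where its difference from PBS did not pass (adjusted p = 0.214) except without PBS 1d replicate 2. Grin2d and Grin3a were lower at 1 day, at -0.34 ± 0.08 and -0.39 ± 0.05. At 7 days against PBS, Grin3a was still lower (-0.30 ± 0.05), and Grin2d did not pass (-0.17 ± 0.07, adjusted p = 0.0684) except without PBS 1d replicate 2. Grin3b was near the lower limit of these libraries, at 0.752 ± 0.314, 0.615 ± 0.474 and 1.34 ± 0.145 CPM. It passed only in LPS 7d against LPS 1d (adjusted p = 0.0268), a call that DESeq2 did not make.

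**Figure D3:**
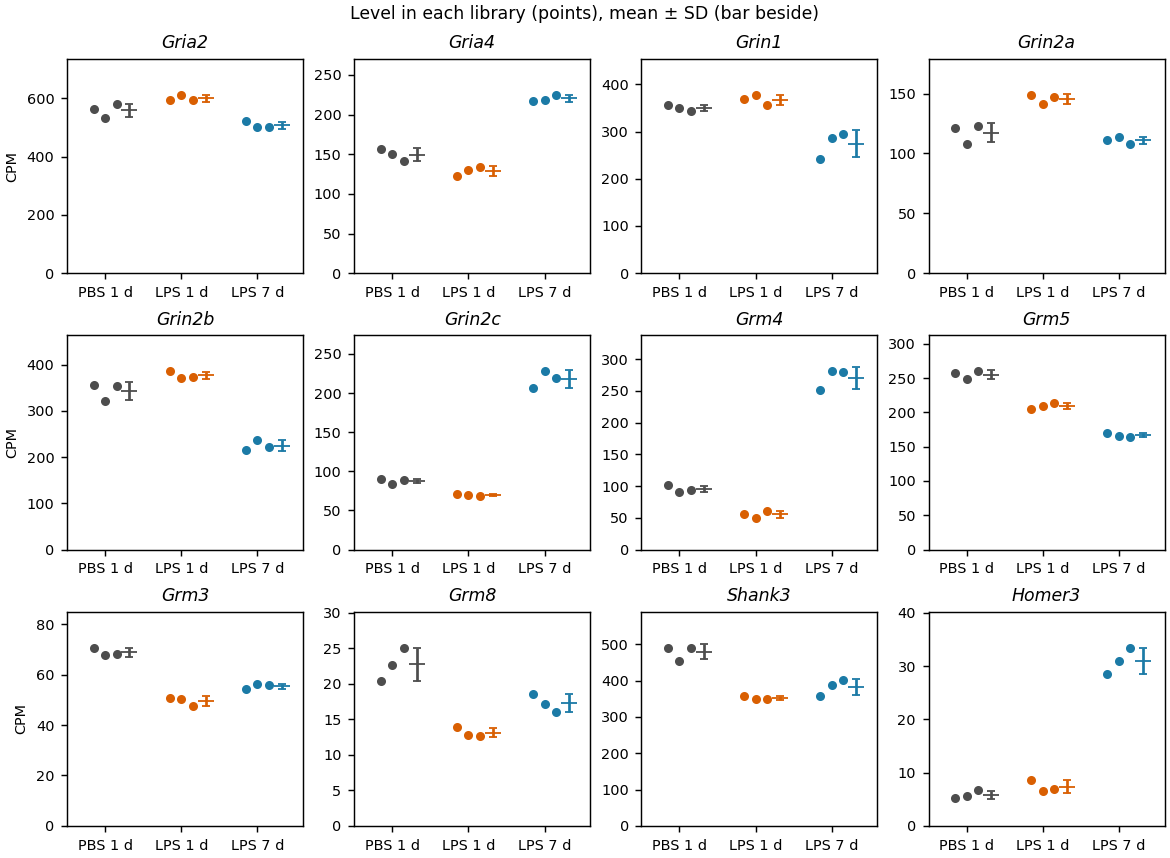
Level in every library (CPM, 1 point a library, with the group mean ± SD beside the points, axes from 0) of 12 receptor and scaffold genes in PBS 1d, LPS 1d and LPS 7d. Homer3, Grm4, Grin2c and Gria4 are highest in LPS 7d, Grin2b and Grm5 are lowest there, and Grm3, Grm8 and Shank3 are lowest in LPS 1d.

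Kainate receptors are built from Grik1 to Grik5 products, the last 2 of which have high affinity for the agonist but need a Grik1, Grik2 or Grik3 partner to form channels. Grik5 measured 254, 254 and 259 CPM in PBS 1d, 269.8, 281 and 278 CPM in LPS 1d and 175, 188 and 195 CPM in LPS 7d. LPS 7d was well below both other groups, which were close together. The 1-day difference was 0.11 ± 0.04 (adjusted p = 0.0183), lost under upper-quartile scaling and without LPS 1d replicate 2 or 3. At 7 days Grik5 fell by 27.3% against PBS (-0.46 ± 0.04, adjusted p = 9.53e-14) and by 32.7% against LPS 1d (adjusted p = 2.59e-17). Grik3 read 149, 138 and 147 CPM in PBS 1d, 133, 120 and 129 CPM in LPS 1d and 110.2, 118 and 119 CPM in LPS 7d, a stepwise order without overlap. It was -0.19 ± 0.05 lower at 1 day (adjusted p = 0.000948) and -0.32 ± 0.05 lower at 7 days (adjusted p = 1.36e-07), both against PBS.

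The other kainate subunits changed at 1 day and not at 7 days against PBS. Grik1 averaged 28.5 ± 1.5, 21.5 ± 1.42 and 24.8 ± 1.7 CPM and was -0.41 ± 0.08 lower at 1 day (adjusted p = 6.36e-05). Its 7-day difference from PBS was -0.20 ± 0.08, which missed the threshold (adjusted p = 0.0515) and passed it without LPS 1d replicate 1 or LPS 7d replicate 3. Grik2 averaged 113 ± 3.82, 97.0 ± 0.793 and 108 ± 4.31 CPM, with -0.22 ± 0.05 at 1 day (adjusted p = 0.000187). Grik4 ran opposite to Grik1 and Grik2: it was 31.3 ± 0.991 CPM in PBS, 40.8 ± 1.85 CPM at 1 day (0.38 ± 0.07, adjusted p = 2.17e-05) and 29.8 ± 2.34 CPM at 7 days. At 7 days against PBS, Grik2 was -0.06 ± 0.05 and Grik4 -0.07 ± 0.07, with adjusted p of 0.346 and 0.478.

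Among delta receptors, Grid1 was followed. Grid1 read 112, 105 and 113 CPM in PBS 1d, 100, 103 and 102 CPM in LPS 1d and 79.4, 78.5 and 78.5 CPM in LPS 7d. The groups stepped down without overlap. Its 7-day difference from PBS was -0.48 ± 0.05 (adjusted p = 6.45e-12). Its 1-day difference was at the threshold (-0.11 ± 0.05, adjusted p = 0.0481). The call was lost with DESeq2, under the neuronal scaling, without the low-count filter and with only the compared groups in the fit. It was also lost with the replicate number as a block, and when any of 6 of the 9 libraries was left out (PBS 1d replicate 1 or 3, LPS 1d replicate 1, 2 or 3, or LPS 7d replicate 2).

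In group I of the mGlu receptors, the level fell at both times after LPS for Grm5. Grm5, the receptor that HOMER proteins tether in striatal and cortical spines, read 257, 248 and 260 CPM in PBS 1d, 205, 209 and 213 CPM in LPS 1d and 170.1, 166 and 164 CPM in LPS 7d. Its 3 groups stepped down without overlap. The difference was -0.29 ± 0.04 at 1 day (adjusted p = 3.14e-08) and -0.61 ± 0.04 at 7 days (adjusted p = 1.59e-18). Striatal markers, given above, were lower at both times as well, and their part in the fall of Grm5 was not tested.

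Group II, Grm2 and Grm3, was lower at 1 day as well. Grm3, found on astrocytes as well as neurons, measured 70.7, 67.6 and 68.0 CPM in PBS 1d, 50.9, 50.3 and 47.4 CPM in LPS 1d and 54.1, 56.1 and 55.7 CPM in LPS 7d. Both LPS groups were below PBS, and LPS 7d lay just above LPS 1d. Grm3 was -0.48 ± 0.06 lower at 1 day (adjusted p = 1.38e-09) and -0.32 ± 0.06 lower at 7 days (adjusted p = 8.43e-06). Grm2, a mainly presynaptic autoreceptor, stood at 45.5, 42.1 and 43.3 CPM in PBS 1d, 36.8, 36.1 and 33.5 CPM in LPS 1d and 45.6, 46.6 and 47.8 CPM in LPS 7d. It was -0.30 ± 0.07 lower at 1 day (adjusted p = 0.000203) and was back above every PBS library at 7 days, by a difference of 0.10 ± 0.06 that did not pass (adjusted p = 0.258).

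Group III held the members with the largest falls at 1 day, Grm8 and Grm4, and the member with the smallest adjusted p at 7 days, Grm4. Grm4, on chromosome 17 (27641361 to 27740377, minus strand), encodes a presynaptic receptor known from cerebellar granule cells and striatal terminals. It measured 101, 90.6 and 94.3 CPM in PBS 1d, 55.7, 50.2 and 60.6 CPM in LPS 1d and 251, 281 and 279 CPM in LPS 7d. The groups lay far apart, LPS 1d lowest and LPS 7d highest. Grm4 fell by 41.7% at 1 day (-0.78 ± 0.06, adjusted p = 2.48e-16), was 2.84-fold higher at 7 days than in PBS (adjusted p = 1.85e-30) and 4.87-fold higher than at 1 day (adjusted p = 3.02e-37). At 1 day its fall stood beside lower striatal markers, with 11 of 12 lower, against 24.2% of all genes. Among them, Drd2 was 87.9 ± 1.12 CPM in PBS 1d and 42.9 ± 2.8 CPM in LPS 1d. Adora2a was 119 ± 3.5 and 55.4 ± 4.24 CPM in the same order. The part of the striatal markers in the fall was not tested.

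Grm8 and Grm7, the other group III receptors tested, did not follow Grm4 at 7 days. Grm8 read 20.4, 22.7 and 25.1 CPM in PBS 1d, 13.9, 12.8 and 12.7 CPM in LPS 1d and 18.6, 17.2 and 16.1 CPM in LPS 7d. LPS 7d lay between the other groups. The differences from PBS were -0.79 ± 0.10 at 1 day (adjusted p = 3.24e-09) and -0.39 ± 0.09 at 7 days (adjusted p = 0.000713). Grm7, a low-affinity receptor of the presynaptic active zone, read 82.7, 78.2 and 83.6 CPM in PBS 1d, 64.1, 61.7 and 62.3 CPM in LPS 1d and 59.3, 56.2 and 58.7 CPM in LPS 7d. Both LPS groups were below PBS, at -0.38 ± 0.05 and -0.49 ± 0.05 (adjusted p of 7.38e-08 and 1.06e-10).

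DLG scaffolds fell modestly. Dlg4, which encodes PSD-95, was the DLG gene with the highest level per length (FPKM, deposited by the authors), 49.6 ± 0.573 in PBS 1d. Its CPM were 672, 661 and 651 in PBS 1d, 673, 647 and 661 in LPS 1d and 530, 546 and 563 in LPS 7d. PBS and LPS 1d lay over each other, and LPS 7d was below both. Dlg4 differed by -0.28 ± 0.03 at 7 days against PBS (adjusted p = 2.9e-09) and did not pass at 1 day (adjusted p = 0.947). The X-linked Dlg3, encoding SAP102, stood at 197, 197 and 214 CPM in PBS 1d, 188, 181 and 176 CPM in LPS 1d and 155, 159.9 and 161 CPM in LPS 7d. It declined in steps, by -0.16 ± 0.04 at 1 day (adjusted p = 0.00196) and -0.35 ± 0.04 at 7 days (adjusted p = 1.27e-09), both against PBS. Dlg2 was also lower at both times (-0.15 ± 0.04 and -0.26 ± 0.04). Dlg1 was lower at 1 day (-0.12 ± 0.04, adjusted p = 0.0184), a call lost without PBS 1d replicate 3 or LPS 1d replicate 2 or 3, and did not pass at 7 days (adjusted p = 0.0848).

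All 4 DLGAP genes were lower at 7 days than in PBS and than at 1 day after LPS. Of all genes tested, 18.9% and 29.1% were lower in these comparisons. Dlgap2 (chromosome 8, 14145865 to 14897680) had the largest fall of any member in size against PBS. It read 80.4, 67.6 and 71.6 CPM in PBS 1d, 54.6, 56.9 and 63.4 CPM in LPS 1d and 38.5, 41.2 and 44.7 CPM in LPS 7d. The groups stepped down without overlap. The fall was -0.33 ± 0.06 at 1 day (adjusted p = 3.08e-05) and -0.82 ± 0.07 at 7 days (adjusted p = 3.15e-15). Dlgap3, the family member enriched in striatum, measured 374, 378 and 374 CPM in PBS 1d, 334, 341 and 322 CPM in LPS 1d and 233, 249 and 255 CPM in LPS 7d. Its fall at 7 days was 34.6% (-0.61 ± 0.04, adjusted p = 4.36e-19) after -0.18 ± 0.04 at 1 day (adjusted p = 0.00013). Both falls stood beside the lower striatal markers given above, whose part in them was not tested. Dlgap1 was 404 ± 18.9, 452 ± 11.2 and 328 ± 11.7 CPM, higher at 1 day (0.16 ± 0.04) and lower at 7 days (-0.30 ± 0.04). Dlgap4 was 336 ± 15.1, 352 ± 4.77 and 272 ± 22.7 CPM and passed only in the 7-day comparisons, with -0.31 ± 0.04 against PBS.

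Among SHANK genes, Shank3 changed most at 1 day. Shank3 (chromosome 15, 89383826 to 89444464), a scaffold of corticostriatal synapses among others, measured 491, 455 and 491 CPM in PBS 1d, 359, 349 and 349 CPM in LPS 1d and 359, 389 and 402 CPM in LPS 7d. Both LPS groups were below PBS and touched each other at their nearest libraries. Shank3 fell by 26.4% at 1 day (-0.44 ± 0.04, adjusted p = 1.3e-13) and was -0.32 ± 0.04 lower at 7 days against PBS (adjusted p = 1.25e-09). The part of the lower striatal markers in these differences was not tested. Shank2 read 221, 192 and 199 CPM in PBS 1d, 220.1, 233 and 225 CPM in LPS 1d and 178, 189 and 191 CPM in LPS 7d. The highest PBS library overlapped LPS 1d. Its 1-day difference was 0.15 ± 0.04 (adjusted p = 0.00477), lost without PBS 1d replicate 2, and its 7-day difference against PBS was -0.13 ± 0.04 (adjusted p = 0.015), lost under plain library totals and without PBS 1d replicate 1 or LPS 7d replicate 1. Shank1 was 449.9 ± 24.9, 391 ± 1.45 and 387 ± 37.5 CPM, lower than PBS at 1 day (-0.20 ± 0.04) and at 7 days (-0.22 ± 0.04).

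Homer3 (chromosome 8, 70735477 to 70747011), the HOMER gene known from Purkinje cells, had the largest rise of all members at 7 days against PBS. It measured 5.17, 5.63 and 6.68 CPM in PBS 1d, 8.71, 6.54 and 6.88 CPM in LPS 1d and 28.6, 31.0 and 33.5 CPM in LPS 7d. The LPS 7d libraries were far above the others, and PBS and LPS 1d overlapped. The fold against PBS was 5.35 (2.42 ± 0.11, adjusted p = 5.42e-24), and against LPS 1d it was 4.24 (adjusted p = 4.2e-22). The 1-day difference of 0.33 ± 0.14 was at the threshold (adjusted p = 0.0454) and was lost with DESeq2, under plain-total and upper-quartile scaling, with only the compared groups in the fit, and without PBS 1d replicate 1 or 2, LPS 1d replicate 1 or LPS 7d replicate 2. Homer2 went down: its libraries were 49.6, 44.7 and 43.5 CPM in PBS 1d, 39.0, 42.7 and 42.2 CPM in LPS 1d and 36.0, 34.1 and 36.2 CPM in LPS 7d. No groups overlapped. Its 7-day difference from PBS was -0.38 ± 0.07 (adjusted p = 1.06e-05), and at 1 day it missed the threshold (-0.15 ± 0.07, adjusted p = 0.0565), which it passed under plain-total and upper-quartile scaling and without PBS 1d replicate 3 or LPS 7d replicate 1.

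Taking the 3 comparisons of each member side by side, 7 members were lower in all of them: Dlg2, Dlg3, Dlgap2, Dlgap3, Grid1, Grik3 and Grm5. How many of all genes tested showed this or the following orders was not counted. The counts therefore describe the members alone and do not set them apart from other genes. Under the neuronal scaling, 5 of these (Dlg2, Dlg3, Dlgap3, Grid1 and Grik3) were not called at 1 day. Another 6 were higher at 1 day and then lower at 7 days than in either other group: Gria1, Gria2, Grin2b, Grik5, Dlgap1 and Shank2. The reverse order, lower at 1 day and higher at 7 days than in either other group, held for 3 members, Gria4, Grin2c and Grm4, of which Gria4 was not called at 1 day under the neuronal scaling. Homer3 was the only member called higher in all 3, with the limits on its 1-day call given above.

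Per-length levels showed how the makeup of each class differed. The share of each subunit in its class's summed FPKM does not depend on library scaling, but a share between genes depends on the deposited gene lengths, which among GluN2 subunits ran from 5037 bases for Grin2c to 24842 bases for Grin2b, and whose definition is not given in the sources used here. With 3 libraries a group, the exact two-sided permutation test over libraries cannot go below p = 0.1, and groups without overlap have that p. Grin2c made up 39.7%, 40.7% and 39.2% of summed GluN2 FPKM in PBS 1d, 33.5%, 33.4% and 32.6% in LPS 1d and 67.3%, 68.0% and 68.2% in LPS 7d. It was the largest GluN2 share in PBS 1d and LPS 7d. In LPS 1d, Grin2b held the largest, at 36.3% ± 0.573. Grin2b stood at 31.7% ± 0.23 in PBS 1d and 14.2% ± 0.271 in LPS 7d, and Grin2a at 15.0% ± 0.299, 19.4% ± 0.563 and 9.74% ± 0.423 in the 3 groups. No groups overlapped for either.

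Gria4 held 14.0% ± 0.568 of AMPA subunit FPKM in PBS 1d, 11.7% ± 0.464 in LPS 1d and 21.9% ± 0.34 in LPS 7d. Gria1 held the largest AMPA share in every group, at 51.3% ± 0.807, 53.4% ± 0.563 and 46.6% ± 0.528. Grm4 made up 14.7% ± 0.495 of mGlu FPKM in PBS 1d, 11.6% ± 1.08 in LPS 1d and 37.1% ± 1.53 in LPS 7d, where it was the largest mGlu share. Grm5 was the largest in the other groups, at 22.9% ± 0.221 in PBS 1d and 25.4% ± 0.624 in LPS 1d, and stood at 13.4% ± 0.522 in LPS 7d. None of these groups overlapped.

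**Figure D4:**
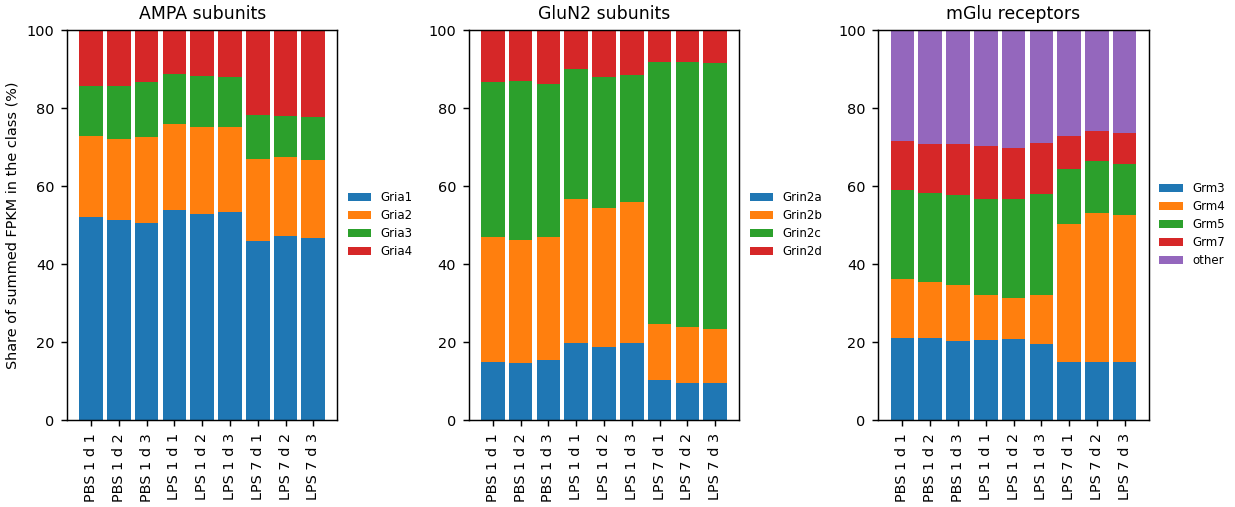
Share of each subunit (percent of summed FPKM) within the AMPA, GluN2 and mGlu classes, as 1 stacked bar a library in PBS 1d, LPS 1d and LPS 7d. The remaining mGlu receptors, Grm2 and Grm8 among them, are stacked together as other. In the LPS 7d bars, Grin2c takes 67.3% to 68.2% of GluN2 FPKM and Grm4 35.4% to 38.2% of mGlu FPKM.

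Each class sum moved less than the most changed subunit in its class, though not less than every subunit. AMPA subunits summed to 168 ± 2.81, 172 ± 1.28 and 163 ± 1.19 FPKM in PBS 1d, LPS 1d and LPS 7d. The mGlu sum was 108 ± 2.39 FPKM in PBS 1d, 78.8 ± 0.49 FPKM in LPS 1d and 124 ± 1.71 FPKM in LPS 7d, a ratio of 0.73 at 1 day and 1.15 at 7 days, with no overlap. Grm4 alone rose from 15.8 ± 0.775 to 46.2 ± 2.52 FPKM between PBS 1d and LPS 7d, more than the difference between the mGlu sums. GluN2 subunits summed to 43.4 ± 2.16, 41.1 ± 0.325 and 65.1 ± 2.64 FPKM, while GluN1 was at 35.9 ± 0.505, 37.2 ± 1.13 and 28.9 ± 2.81 FPKM. So the GluN2 sum was highest where GluN1 was lowest. Of the GluN2 subunits, only Grin2c had a higher mean in LPS 7d than in PBS 1d, at 44.2 ± 1.99 against 17.3 ± 0.564 FPKM. The means of Grin2a, Grin2b and Grin2d were lower. The DLGAP sum stepped down from 156 ± 2.66 through 147 ± 1.62 to 114 ± 5.52 FPKM, and the kainate sum was 83.1 ± 1.06, 83.5 ± 0.519 and 67.2 ± 2.39 FPKM.

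Further lists of glutamate synapse genes were read in the same way. The shares of all genes tested to set beside their counts are 24.9% higher and 24.2% lower at 1 day under TMM. At 7 days against PBS they are 16.8% higher and 18.9% lower. Counts under the neuronal scaling at 1 day belong beside 5373 higher and 2154 lower of all 14837 genes. Auxiliary subunits of AMPA and kainate receptors control trafficking and gating. Of 15, 1 was higher (6.67%) and 8 lower (53.3%) at 1 day, and 3 were higher and 10 lower (66.7%) at 7 days against PBS (medians -0.22 and -0.43). Cacng4, a TARP that escorts AMPA receptors, was 83.0 ± 6.24, 47.3 ± 2.26 and 55.5 ± 3.37 CPM, with -0.81 ± 0.06 at 1 day (adjusted p = 6.42e-16). Neto1, an auxiliary subunit of kainate receptors, was 133 ± 1.49, 137 ± 3.18 and 82.0 ± 3.6 CPM, with -0.70 ± 0.05 at 7 days against PBS (adjusted p = 6.16e-18). Shisa6, which slows AMPA receptor desensitisation, was the auxiliary subunit called higher at 1 day (0.43 ± 0.06, adjusted p = 9.12e-09); the neuronal scaling called 5 higher and 7 lower.

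Other postsynaptic density genes, 16 in number, were 6 higher (37.5%) and 4 lower at 1 day and 2 higher (12.5%) and 12 lower (75.0%) at 7 days against PBS (medians 0.03 and -0.39). The share lower at 1 day was close to the 24.2% of all genes. Under the neuronal scaling 9 were higher and 1 lower, beside 5373 higher and 2154 lower of all 14837 genes. Camk2a, the kinase of synaptic potentiation, was 2381 ± 112, 2933 ± 13.9 and 1505 ± 74.4 CPM, which gives 0.30 ± 0.03 at 1 day (adjusted p = 1.57e-10) and -0.66 ± 0.03 at 7 days (adjusted p = 1.12e-22). Homer1, kept apart from the member list because the rule names only Homer2 and Homer3, was 125 ± 4.27, 93.5 ± 1.08 and 88.6 ± 8.77 CPM, lower at 1 day (-0.42 ± 0.05, adjusted p = 3.79e-09) and at 7 days (-0.49 ± 0.05, adjusted p = 2.68e-11). Kalrn, an exchange factor for small GTPases in spines, was -0.65 ± 0.04 at 7 days against PBS (adjusted p = 4.52e-21).

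Of 17 synaptic organisers, which bridge the cleft, 3 were higher (17.6%) and 6 lower (35.3%) at 1 day, and 2 were higher (11.8%) and 11 lower (64.7%) at 7 days against PBS (medians -0.11 and -0.28), against 24.9% and 24.2% and 16.8% and 18.9% of all genes. The neuronal scaling called 5 higher and 6 lower at 1 day, beside 5373 higher and 2154 lower of all 14837 genes. The 2 higher at 7 days were Cbln1, with 2.35 ± 0.05 (adjusted p = 1.64e-40), and Nptx1, a pentraxin that clusters AMPA receptors, with 0.68 ± 0.04 (adjusted p = 1.99e-21). Cbln1 was 64.0 ± 4.86, 49.0 ± 0.681 and 326 ± 2.41 CPM in PBS 1d, LPS 1d and LPS 7d. Its rise stood beside that of the granule cell markers given above, whose part in it was not tested. Cbln2 and Cbln4 were lower at 7 days against PBS (-0.24 ± 0.08 and -0.26 ± 0.09). Nptx2 moved opposite to Nptx1, at -0.58 ± 0.07 at 1 day and -0.79 ± 0.07 at 7 days. Among 11 genes of glutamate release and clearance, 5 were higher (45.5%) and 4 lower (36.4%) at 1 day, and 4 were higher (36.4%) and 5 lower (45.5%) at 7 days (medians 0.00 and -0.05). The neuronal scaling gave 5 higher and 2 lower at 1 day. Slc17a6, the vesicular transporter of thalamic neurons (VGLUT2), was 198 ± 3.57, 135 ± 0.795 and 163 ± 14.1 CPM, lower at 1 day (-0.55 ± 0.05, adjusted p = 2.15e-14). Slc17a7 (VGLUT1), the transporter of cortical, hippocampal and granule cell terminals, was 707 ± 11.1, 869 ± 22.5 and 645 ± 6.63 CPM, higher at 1 day (0.30 ± 0.03, adjusted p = 1.69e-10). Slc1a6, the Purkinje cell glutamate transporter, was 14.0 ± 0.953, 10.7 ± 1.3 and 46.2 ± 1.54 CPM, higher at 7 days (1.72 ± 0.09, adjusted p = 4.1e-23).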

How the data were processed

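The authors deposited raw read counts per gene and FPKM (read counts divided by gene length and by library total) for 9 libraries, with gene coordinates and lengths. Per the labels, total RNA came from a Trizol extraction and a TruSeq RNA kit was used for the libraries. The submitters' processing notes name TopHat2, HISAT2, HTSeq and GRCm39; no source used here gives their roles, versions or strand setting, so reads of overlapping antisense genes cannot be told apart. FPKM recomputed from the deposited counts and lengths matched to a relative difference of 1.6e-07.

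Counts were tested with edgeR 4.0.16 in R 4.3.3 (filterByExpr, TMM factors of 0.983 to 1.03, glmQLFit and glmQLFTest, all 9 libraries in 1 fit, Benjamini-Hochberg over 14837 genes) and tested on simulated data. Subunit shares and class sums used FPKM and an exact permutation test. Members and lists were chosen with earlier results of these data known. Values in every library are given for members with the 5 smallest adjusted p in any comparison, up to 2 members a class with the smallest p, and Grin1, Gria2 and Dlg4; from each other list up to 3 genes with the smallest p in a comparison, and defining markers, were named, as were further genes chosen after their values were seen. Alternatives were DESeq2 1.42.0, other scalings, no low-count filter, a fold threshold, a replicate block, only the compared groups, and leaving out each library. A few genes counted here are not reported by name.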

Additional observations from a re-analysis of the deposited data

How the results depend on the processing

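Of the 114 member results (38 members in 3 comparisons), DESeq2 kept the call in 111 and lost it in 3, and RLE factors kept all 114. Scaling to the general neuronal markers kept 92, lost 13, gained 5 and turned the sign of 4. That scaling gave 14 members higher and 13 lower at 1 day against PBS, in place of 9 and 22. It also moved the split of all genes between the LPS groups to 2817 higher and 5666 lower, from 4076 and 4323, and plain library totals moved the 7-day split against PBS to 3183 and 2326, from 2489 and 2798. Tested against a fold of 1.5, the counts of members were 0 higher and 1 lower at 1 day, 4 higher and 1 lower at 7 days against PBS, and 5 higher and 1 lower between the LPS groups. For all 14837 genes the counts in the same order were 511 and 136, 342 and 197, and 550 and 706. By construction that test asks for a larger change.

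Leaving out each library in turn gave 5 to 10 members higher and 20 to 23 lower at 1 day, 5 to 5 higher and 23 to 26 lower at 7 days against PBS, and 10 to 13 higher and 18 to 20 lower between the LPS groups. Replicate numbers did not pair the samples: deviations of same-numbered libraries from their group means correlated at -0.0774 to 0.0295. With the replicate number as a block, 9 were higher and 21 lower at 1 day, 5 and 24 at 7 days against PBS, and 13 and 20 between the LPS groups. The call lost under the block was Grid1, LPS 1d against PBS 1d (-0.111, adjusted p = 0.0661).

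The results whose sign turned were not called under the reported settings. For Gria3, LPS 1d against PBS 1d, the difference was 0.106 under the neuronal scaling, 0.00 without the low-count filter, and -0.027 to 0.029 over the fits without 1 library, above 0 without PBS 1d replicate 3 or LPS 1d replicate 1. For Dlg4, LPS 1d against PBS 1d, it was 0.104 under the neuronal scaling and -0.018 to 0.011 without 1 library, above 0 without PBS 1d replicate 1 or LPS 1d replicate 2. For Grin3b, LPS 1d against PBS 1d, it was -1.095 to 0.204 without 1 library, above 0 without replicate 3 of either group. For Shank1, LPS 7d against LPS 1d, it was 0.039 under plain totals, 0.006 under upper-quartile factors and -0.066 to 0.062 without 1 library, above 0 without LPS 7d replicate 1. Under the neuronal scaling it was -0.077 for Dlg1, LPS 7d against LPS 1d, and -0.012 for Grin3a, LPS 7d against LPS 1d. The cause was not tested. At 0 to 4 counts a library, no difference in Grm6 was detectable at this depth.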
